A study of Mus musculus with 12 samples.

Results

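The DNA methylation machinery of mouse oocytes was described here through 10 genes, chosen by name as the writers, erasers and protectors of cytosine methylation: Dnmt1, Dnmt3a, Dnmt3b, Dnmt3l, Uhrf1, Dppa3, Tet1, Tet2, Tet3 and Zfp57. All 10 were among the 24562 genes counted by RNA-Seq, and all 10 were among the 13943 genes with enough counts to be tested. The samples were 12 pools of 18 to 45 oocytes isolated from antral follicles of CD-1 mice, an outbred strain. The mice had received no gonadotropins, and no genetic change is named in any group. For its oocytes in general, the paper describes collection and short culture in media with milrinone, an inhibitor that holds meiotic arrest. The pools formed 4 cohorts of 3 pools each: postnatal day (PND) 13, PND 40 and 2 cohorts of PND 16, small and large, whose mice were separated by body weight. The study treated PND 13 and PND 16 small oocytes as meiotically non-competent. It treated PND 16 large and PND 40 oocytes as competent, a label given to the cohort and not to each oocyte. For the split by weight at PND 16, the paper did not show its maturation data, which came from 2 mice per group. A pool averages over its oocytes. The 2 PND 16 cohorts share their age and differ by body weight. PND 40 lies only in the competent group and PND 13 only in the non-competent group. Competent vs. non-competent oocytes therefore cannot tell competence apart from age.

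Between 17671193 and 27418358 reads were counted in a pool. Levels are given as CPM, counts relative to the total of the pool after TMM scaling (trimmed mean of M-values), so a change in the amount of RNA per oocyte would not be visible in them. The 15 oocyte markers summed to between 16754 and 21736 CPM in the 12 pools. The 3 PND 40 pools (16754 to 17538 CPM) lay below the other 9 (18321 CPM or more). At PND 40 vs. PND 13, 3 of the 15 markers were called lower and 0 higher, beside 18.9% of all genes called. At PND 40 vs. PND 16 small, 3 were called lower and 1 higher, beside 17.2%. The 16 granulosa cell markers, which report cells that surround the oocyte, summed to between 219 and 698 CPM. Of single markers, Inha was between 2.34 and 143 CPM, Amh between 0.389 and 33.5 and Foxl2 between 0.391 and 20.0. Fshr, a defining receptor, was between 0.386 and 4.25 CPM. The sums were highest in PND 16 small replicate 2 (698 CPM), PND 13 replicate 3 (621 CPM) and PND 13 replicate 1 (567 CPM), as were these single markers. The comparisons of the 10 genes, and of the wider list where it was called, were repeated without these 3 pools. The ribosomal RNA precursor Rn45s took 1.46% to 2.98% of the counts of non-competent pools and 0.520% to 0.954% of those of competent pools, and its part in the differences below was not tested.

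DNA methyltransferases add methyl groups to cytosines that are followed by guanine (CpG). DNMT1 copies methylation onto new DNA strands with the help of UHRF1, which recognises hemimethylated sites, whereas DNMT3A and DNMT3B methylate new sites. In growing oocytes, DNMT3A together with its inactive partner DNMT3L lays down most of the methylation, including maternal imprints. TET enzymes oxidise methylcytosine, and oocyte TET3 does so in the zygote. DPPA3, also called STELLA, keeps UHRF1 from chromatin in the oocyte and shields the maternal genome after fertilization, and ZFP57 binds methylated imprints and holds their methylation in the embryo.

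The upstream sequences of genes that differed by meiotic competence are shown first, since CpG dinucleotides are the sites at which the methylation machinery acts. RefSeq starts on GRCm38.p6, the same assembly as the mm10 build that the labels name, were found for 9 of the 10 genes, the exception being Dppa3. Each sequence holds the 250 bases before a start, on the strand of the gene, with CpG in capitals, and only windows free of annotated exons of the gene were printed. For Dnmt1 there were 3 starts, of which the most upstream and the next are given, because the oocyte is known to transcribe Dnmt1 from a start of its own upstream of the somatic one. The counts are per gene and do not tell which start was used.
Dnmt1, chr9:20959889-20960138, minus strand: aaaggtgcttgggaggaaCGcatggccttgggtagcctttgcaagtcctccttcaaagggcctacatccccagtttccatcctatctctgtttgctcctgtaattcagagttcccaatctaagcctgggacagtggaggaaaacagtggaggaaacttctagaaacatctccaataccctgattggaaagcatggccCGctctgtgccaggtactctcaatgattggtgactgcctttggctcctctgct
Dnmt1, chr9:20952980-20953229, minus strand: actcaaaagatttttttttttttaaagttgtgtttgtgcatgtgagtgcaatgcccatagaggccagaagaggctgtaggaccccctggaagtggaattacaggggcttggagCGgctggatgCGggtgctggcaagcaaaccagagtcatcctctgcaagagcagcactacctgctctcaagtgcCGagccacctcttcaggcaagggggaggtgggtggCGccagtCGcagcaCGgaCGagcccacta
Uhrf1, chr17:56304063-56304312, plus strand: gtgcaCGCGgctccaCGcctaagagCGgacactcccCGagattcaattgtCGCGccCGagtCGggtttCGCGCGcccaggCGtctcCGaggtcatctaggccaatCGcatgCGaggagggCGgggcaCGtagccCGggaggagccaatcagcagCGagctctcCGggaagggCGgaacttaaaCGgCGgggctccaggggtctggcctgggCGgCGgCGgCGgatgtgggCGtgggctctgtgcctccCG
Dnmt3l, chr10:78049592-78049841, plus strand: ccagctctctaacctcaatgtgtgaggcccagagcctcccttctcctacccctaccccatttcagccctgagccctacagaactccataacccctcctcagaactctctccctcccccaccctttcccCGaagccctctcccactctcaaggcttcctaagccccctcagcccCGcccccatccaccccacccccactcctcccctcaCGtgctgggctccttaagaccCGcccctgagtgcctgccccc

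These windows differed widely in CpG. The upstream Dnmt1 window held 2 CpG, and 29.0% of the 32851 RefSeq windows of this length held at most as many. The next Dnmt1 window held 7 (57.0% of windows held at most as many) and the Dnmt3l window 4 (44.4%), whereas the Uhrf1 window held 30 (94.8%). Of the starts not printed, the third Dnmt1 start had 26 CpG (91.4%) and the second Uhrf1 start 10 (64.4%), in windows that hold exon bases of the gene, and the other Dnmt3l starts had 5 and 3. Over all windows the median was 6 CpG, with quartiles of 2 and 16. Of the other genes, Dnmt3a, Dnmt3b, Tet1, Tet2 and Tet3 had 15 to 51 CpG before their starts, and the 3 starts of Zfp57 had 3 to 7.

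The levels of the 10 genes spanned more than 3 orders of magnitude when counts were divided by exon length (GENCODE M21 union of exons, CPM per kb, mean ± SD over 12 pools). Dnmt1 (chr9:20907209-20959888, minus strand) was the highest at 740 ± 81.1 CPM per kb and ranked 15 of 23984 genes. Zfp57 (chr17:37001163-37010635, plus strand) followed at 434 ± 33.9 CPM per kb, rank 39. Uhrf1 (chr17:56303321-56323486, plus strand) and Tet3 (chr6:83362373-83459084, minus strand) lay next to each other at 257 ± 29.9 and 256 ± 15.2 CPM per kb, ranks 80 and 81, and did not differ beyond their spread. Dppa3 (chr6:122626410-122630272, plus strand) was at 227 ± 29.3 CPM per kb, rank 93, within the spread of both.

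The other genes were well below these. Dnmt3l (chr10:78041947-78063622, plus strand) was at 47.5 ± 6.95 CPM per kb, Dnmt3a (chr12:3806007-3914443, plus strand) at 20.4 ± 2.23 and Dnmt3b (chr2:153649450-153687730, plus strand) at 6.66 ± 1.30. Tet2 (chr3:133463679-133545139, minus strand) was at 0.982 ± 0.171 CPM per kb and Tet1 (chr10:62804570-62908996, minus strand) at 0.336 ± 0.139. Thus the de novo enzymes stood far below Dnmt1, and of the TET enzymes Tet3 was by far the highest. These ranks rest on whole-gene exon unions, and the transcripts in the oocyte may be shorter. Aire overlaps Dnmt3l on the opposite strand and had 155 to 265 counts in a pool. The libraries were directional, but the strand setting of the counting is not given in the sources used here, so reads of the overlap could belong to either gene. Processed pseudogenes of Dnmt3a, Dnmt3l and Dppa3 are annotated elsewhere in the genome and could share reads with them.

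**Figure D1:**
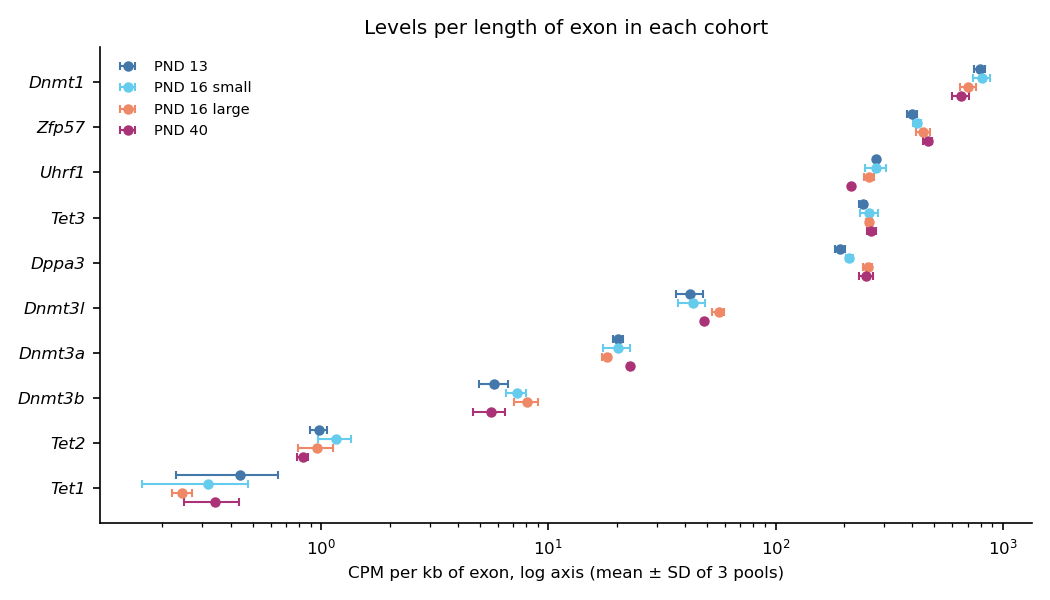
Level per kb of exon on a log axis for each of the 10 genes, with 1 point per cohort (mean ± SD of 3 pools). Dnmt1 is highest at 656 to 807 CPM per kb in the cohort means, and Tet1 is lowest at 0.245 to 0.439; differences between cohorts are small beside those between genes.

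To ask whether this machinery differed with age and meiotic competence, each gene was compared in edgeR's quasi-likelihood test, with p-values adjusted over all 13943 genes. Under the criteria of the study, which ask for an adjusted p up to 0.05 together with a change of 1.5-fold or more, 0 of the 10 genes were called in any of the 6 pairwise comparisons or in competent vs. non-competent oocytes. Over all genes tested, the percentage called was 0.373 for PND 16 small vs. PND 13, 13.3 for PND 16 large vs. PND 13 and 18.9 for PND 40 vs. PND 13. It was 6.19 for PND 16 large vs. PND 16 small, 17.2 for PND 40 vs. PND 16 small, 3.66 for PND 40 vs. PND 16 large and 15.0 for competent vs. non-competent oocytes. At an unadjusted p under 0.05 there were 1, 4, 4, 3, 7, 3 and 5 of the 10 genes in these comparisons, in the same order. Over all 13943 genes there were 2684, 5240, 6008, 3934, 5696, 3123 and 5865. DESeq2 also called 0 of the 10 genes in each comparison.

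Smaller differences did pass the adjusted p alone. In an overall test for any difference among the 4 cohorts, 6 of the 10 genes passed (Dnmt1, Dnmt3a, Dnmt3b, Dnmt3l, Uhrf1 and Dppa3), beside 39.7% of all genes, and the count was 2 without PND 16 large replicate 3 and 3 without PND 40 replicate 1. Between pairs of cohorts, 0 genes passed in PND 16 small vs. PND 13 (0.925% of all genes) and 3 in PND 16 large vs. PND 13 (25.6%). In PND 40 vs. PND 13, 4 passed (33.1%), in PND 16 large vs. PND 16 small 2 (12.3%), in PND 40 vs. PND 16 small 4 (30.2%) and in PND 40 vs. PND 16 large 1 (6.83%). For this last pair the count was 3 with DESeq2, limma, RLE scaling or the granulosa marker level as a covariate, 4 in a fit of only the 6 pools, and 2 with upper quartile scaling, no filter, a minimum count of 50 or without the 3 pools highest in granulosa markers. In competent vs. non-competent oocytes 4 passed (30.7%). Single pools weighed on these counts. The count was 1 for PND 16 large vs. PND 13 without PND 13 replicate 3 or PND 16 large replicate 3, and 2 for PND 40 vs. PND 13 without PND 13 replicate 3 or PND 40 replicates 1 or 2. It was 0 to 1 for PND 16 large vs. PND 16 small and 0 for PND 40 vs. PND 16 large whichever pool was left out. For PND 40 vs. PND 16 small it was 2 without PND 16 small replicate 3 or PND 40 replicate 3 and 1 without PND 40 replicate 1, and for competence it was 2 without PND 40 replicate 1. The median absolute log2 fold change of the 10 genes in that comparison was 0.23, beside 0.30 over all genes, and the 95% interval of the fold change lay within 1.5-fold in either direction for 9 of the 10, all but Tet1.

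**Figure D2:**
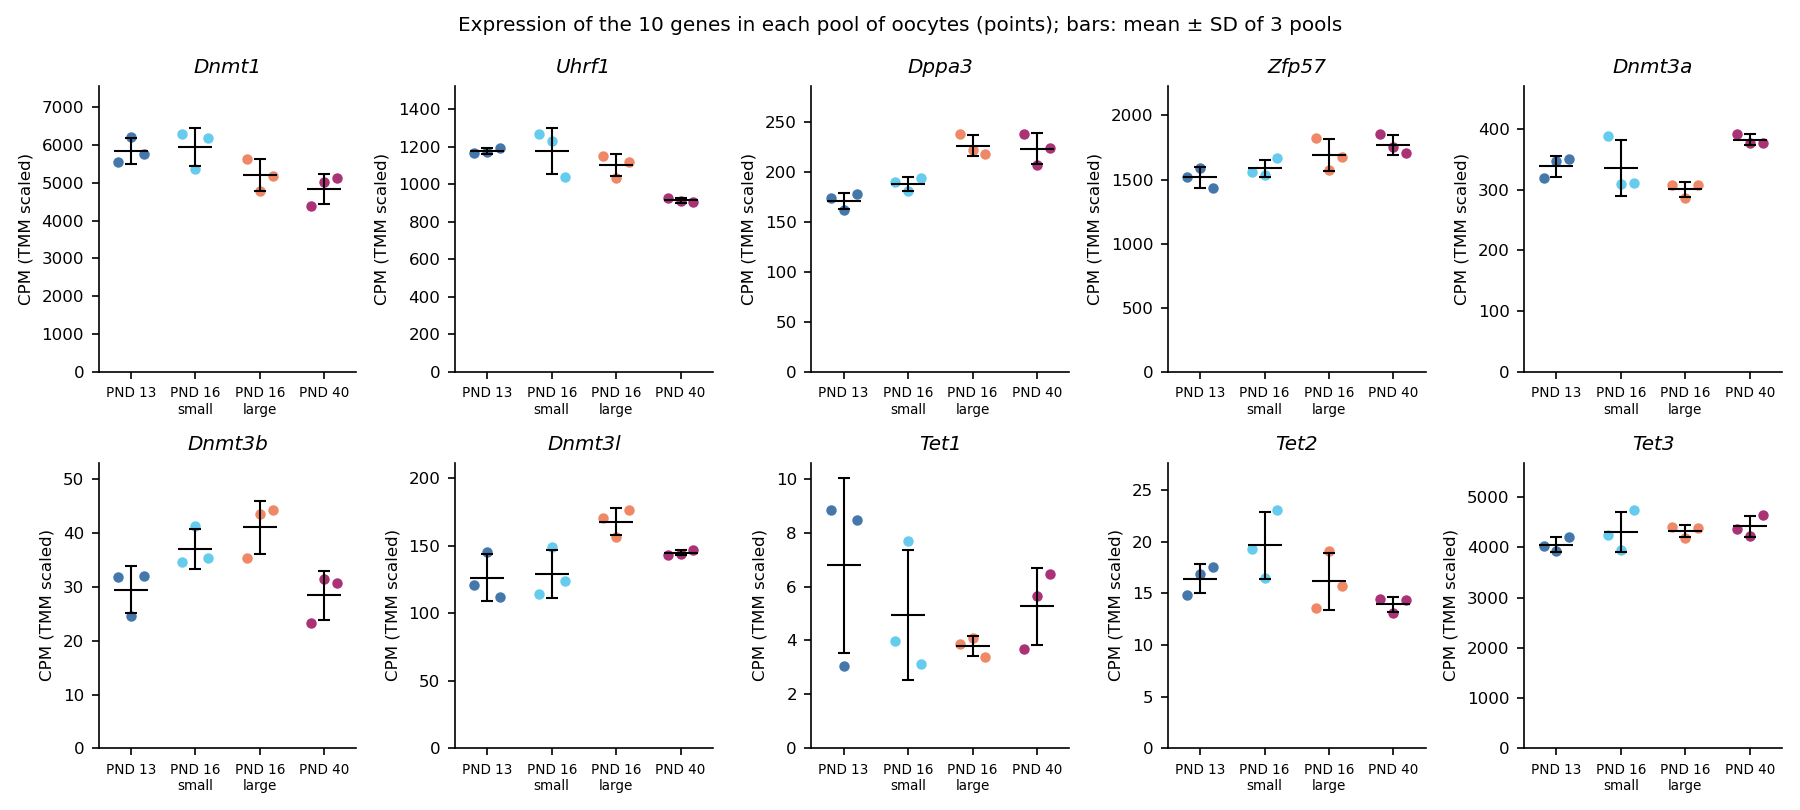
CPM of each gene in each of the 12 pools (points, 3 per cohort), with bars for the mean ± SD; each axis starts at 0. Uhrf1 is lowest at PND 40, Dppa3 is higher in PND 16 large and PND 40 than in every younger or smaller pool, and Tet1 varies most within a cohort.

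Transcripts of the maintenance enzyme and its cofactor were lower at PND 40 than at PND 13 and in PND 16 small. The summed oocyte markers were also lowest in the PND 40 pools, and their part in this was not tested. Dnmt1 was at 5539, 6208 and 5759 CPM in the PND 13 pools, 6300.3, 5366 and 6188 in PND 16 small, 5628, 4792 and 5183 in PND 16 large and 4376, 5020.3 and 5119 at PND 40. All PND 40 pools lay below all pools of PND 13 and PND 16 small. In these pairs of cohorts the pools did not overlap for 50.8% and 43.9% of all genes. The PND 16 large pools of Dnmt1 overlapped each of the other cohorts. The log2 fold change was -0.27 ± 0.0892 (SE, adjusted p = 0.0328) vs. PND 13 and -0.30 ± 0.0892 (adjusted p = 0.0221) vs. PND 16 small. In competent vs. non-competent oocytes it was -0.23 ± 0.0697 (adjusted p = 0.0210), from 5893 ± 393 to 5020 ± 418 CPM (SD, n = 6), and the groups overlapped. Leaving out 1 pool raised these adjusted p-values to as much as 0.159, 0.117 and 0.0578. The pools were PND 13 replicates 2 and 3 and PND 40 replicates 1 and 2 for the first comparison, PND 16 small replicates 1 and 3 and PND 40 replicate 1 for the second, and PND 40 replicate 1 for the third. With the replicate number as a block, the value for PND 40 vs. PND 13 was -0.27 with an adjusted p of 0.0515. Without the 3 pools highest in granulosa markers, which leaves 1 PND 13 pool, the value was -0.36 and did not pass.

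Uhrf1 had its lowest level at PND 40. Its values were 1165, 1175 and 1196 CPM at PND 13, 1271, 1230 and 1039 in PND 16 small, 1150.3, 1036 and 1118 in PND 16 large and 929, 911 and 906 at PND 40. The PND 40 pools did not overlap any other cohort. Taken pair by pair, this held for 50.8% of all genes vs. PND 13, 43.9% vs. PND 16 small and 39.3% vs. PND 16 large. The SD of Uhrf1 at PND 40 was 11.9 CPM, beside 124 CPM in PND 16 small. The log2 fold change was -0.36 ± 0.0756 (adjusted p = 0.00263) vs. PND 13 and -0.37 ± 0.0756 (adjusted p = 0.00285) vs. PND 16 small, and both passed whichever pool was left out. Vs. PND 16 large it was -0.27 ± 0.0755 with an adjusted p of 0.0503, which does not pass. For Uhrf1 this adjusted p was 0.00915 with DESeq2, 0.0358 with limma, 0.0418 with RLE scaling, 0.0499 with upper quartile scaling, 0.0384 with a minimum count of 50, 0.0431 with the granulosa covariate and 0.00337 in a fit of only the 6 pools, and 0.0623 to 0.173 with 1 of the 6 pools left out. The competence comparison gave -0.23 ± 0.0754 (adjusted p = 0.0340), between 1179 ± 78.9 and 1008 ± 109 CPM (SD, n = 6). That call was lost with the replicate block (adjusted p = 0.0543) and on leaving out any 1 of 7 pools (PND 13 replicates 1 and 3, PND 16 small replicates 1 and 2, and each PND 40 pool), with adjusted p-values up to 0.0891. Without the 3 pools highest in granulosa markers the adjusted p was 0.189 for competence. PND 40 vs. PND 13, with 1 PND 13 pool left, did not pass there either. PND 16 large vs. PND 16 small gave -0.10 ± 0.0755 with an adjusted p of 0.424.

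Dppa3 differed in the other direction, with the smallest p of the 10 genes. It was at 174, 162 and 178 CPM at PND 13, 190.0, 181 and 194 in PND 16 small, 239, 223 and 219 in PND 16 large and 238, 208 and 225 at PND 40. Every competent pool was above every non-competent pool. The competent and non-competent pools did not overlap, in either direction, for 1 of the 10 genes and for 14.7% of all genes. Dppa3 rose by 0.32 ± 0.0585 on the log2 scale in competent oocytes (1.25-fold, adjusted p = 0.000984), and this passed with each pool left out. It rose by 0.40 ± 0.0702 in PND 16 large (adjusted p = 0.00162) and by 0.38 ± 0.0702 at PND 40 (adjusted p = 0.00120), both vs. PND 13 and with any pool left out. Within PND 16 the rise from small to large was 0.27 ± 0.0702 (adjusted p = 0.0266) and PND 40 exceeded PND 16 small by 0.25 ± 0.0702 (adjusted p = 0.0177). These last 2 did not pass without PND 16 small replicate 2, without PND 16 large replicates 1 or 2 (for the former) or without PND 40 replicates 1 or 3 (for the latter), with adjusted p-values up to 0.126 and 0.0840. Nor did they pass in fits of only the 6 pools compared (adjusted p = 0.0686 and 0.0649) or without the 3 pools highest in granulosa markers (0.0579 and 0.0526). PND 40 and PND 16 large differed by -0.02, with a 95% interval of -0.17 to 0.13.

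Since DPPA3 acts on UHRF1, the ratio of their counts was taken within each pool, which needs no scaling between pools. There were 0.145 counts of Dppa3 per count of Uhrf1 at PND 13, 0.160 in PND 16 small, 0.206 in PND 16 large and 0.244 at PND 40 (geometric means of 3 pools). In single pools the ratio ran from 0.138 to 0.187 in non-competent and from 0.196 to 0.256 in competent oocytes, without overlap. The log2 ratio differed by 0.55 (1.47-fold, n = 6 and 6, exact two-sided permutation p = 0.0022, the smallest this design can give, adjusted p = 0.00866 over 4 ratios). With permutation within replicate numbers the adjusted p was 0.0370. Competence was a label of cohorts, and these p-values treat pools as its replicates. They do not measure a replicated effect of competence. Within the competent group, the pools of PND 16 large (0.196 to 0.215) and PND 40 (0.228 to 0.256) did not overlap. The ratio was examined with the levels of both genes known, and it restates their opposite directions on a scale free of normalization.

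**Figure D3:**
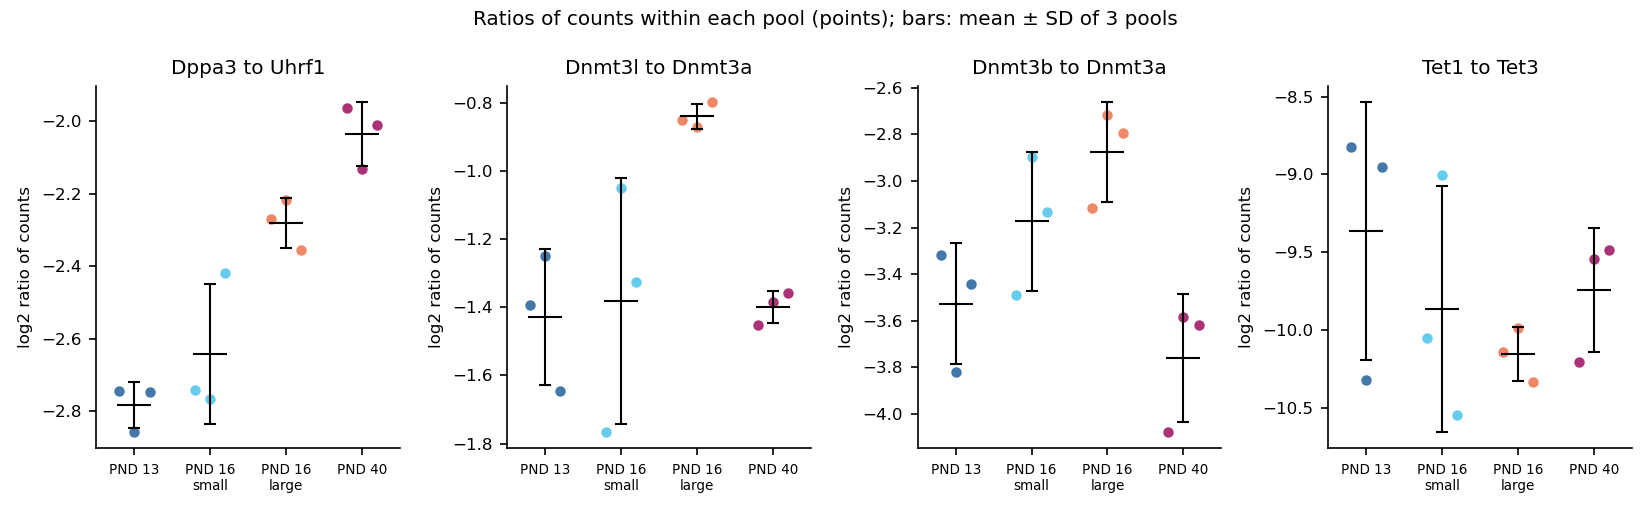
Log2 ratio of counts within each pool for 4 pairs of genes (points, 3 pools per cohort; bars, mean ± SD). Dppa3 to Uhrf1 ranges from -2.86 to -2.42 in the 6 non-competent pools and from -2.35 to -1.96 in the 6 competent pools; the other 3 ratios overlap between these groups.

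Zfp57, the imprint-binding zinc finger protein, was at 1516 ± 79.9 CPM at PND 13, 1587 ± 69.3 in PND 16 small, 1692 ± 125 in PND 16 large and 1772 ± 78.5 at PND 40 (SD, n = 3). All 3 PND 40 pools (1704 to 1858 CPM) lay above all 3 PND 13 pools (1433 to 1593 CPM). The pools of these cohorts did not overlap for 50.8% of all genes. Zfp57 rose by 0.23 ± 0.0721 on the log2 scale between them (adjusted p = 0.0287). Without PND 13 replicates 1 or 3 or PND 40 replicates 1 or 2 this did not pass (adjusted p up to 0.114), nor with scaling by total counts alone (adjusted p = 0.0673). Nor did it pass without the 3 pools highest in granulosa markers, which leaves 1 PND 13 pool. Competent vs. non-competent oocytes gave 0.16 ± 0.0582 with an adjusted p of 0.0508. In the overall test among the 4 cohorts, Zfp57 did not pass (adjusted p = 0.0778).

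Dnmt3l, the partner of the de novo enzymes, had its highest mean in PND 16 large. It was at 121, 146 and 112 CPM at PND 13, 114, 149 and 124 in PND 16 small, 171, 157 and 176 in PND 16 large and 143, 144 and 147 at PND 40. The PND 16 large pools were above all others, and PND 40 overlapped the younger cohorts. Over all genes, PND 16 large did not overlap PND 13 for 45.5%, PND 16 small for 31.5% and PND 40 for 39.3%. Dnmt3l rose by 0.41 ± 0.107 in PND 16 large vs. PND 13 (adjusted p = 0.0135), by 0.38 ± 0.107 vs. PND 16 small (adjusted p = 0.0356) and by 0.29 ± 0.0856 in competent vs. non-competent oocytes (adjusted p = 0.0181). PND 40 vs. PND 16 large gave -0.21 ± 0.107 with an adjusted p of 0.265. The competence difference passed with each pool left out. The difference from PND 13 did not pass without PND 13 replicate 3 or PND 16 large replicates 1 or 3 (adjusted p up to 0.0686), and the difference within PND 16 passed only without PND 16 small replicate 2, with adjusted p-values up to 0.118 otherwise and 0.0813 in a fit of only the 6 pools compared. Without the 3 pools highest in granulosa markers, the rise over PND 13 was 0.21 and did not pass, PND 13 then holding 1 pool that was taken to vary like the others. The competence difference was 0.29 (adjusted p = 0.0597).

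Dnmt3a, the catalytic subunit, had its highest mean at PND 40. It was at 318, 346 and 349 CPM at PND 13, 388, 308 and 311 in PND 16 small, 308, 286 and 307 in PND 16 large and 392, 376 and 377 at PND 40. PND 16 large and PND 40 did not overlap, as was so for 39.3% of all genes. Dnmt3a was higher at PND 40 than in PND 16 large by 0.35 ± 0.0850 (1.27-fold, adjusted p = 0.0286). Leaving out any of the 6 pools gave adjusted p-values of 0.0815 to 0.128. Dnmt3a did not separate competent from non-competent oocytes (0.02, 95% interval -0.17 to 0.21).

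Dnmt3b had its highest mean in PND 16 large. It was at 31.9, 24.5 and 32.1 CPM at PND 13, 34.5, 41.3 and 35.4 in PND 16 small, 35.4, 43.5 and 44.3 in PND 16 large and 23.2, 31.4 and 30.7 at PND 40. Over all genes, PND 16 large did not overlap PND 13 for 45.5% and PND 40 for 39.3%. For Dnmt3b, PND 16 large was above PND 13 without overlap, by 0.48 ± 0.150 (adjusted p = 0.0329). That difference did not pass without PND 13 replicates 2 or 3 or PND 16 large replicates 2 or 3 (adjusted p up to 0.127). Nor did it pass with total counts alone (adjusted p = 0.0960). Without the 3 pools highest in granulosa markers the difference was 0.75, past 1.5-fold. PND 13 then held only replicate 2, its lowest pool at 24.5 CPM. At PND 40 Dnmt3b was lower than in PND 16 large in every pool, by -0.53 ± 0.150, with an adjusted p of 0.0505 that does not pass. For Dnmt3b this adjusted p was 0.0118 with DESeq2, 0.0471 with limma, 0.0494 with RLE scaling, 0.0461 with no filter, 0.0198 with the granulosa covariate, 0.0148 in a fit of only the 6 pools and 0.0410 without the 3 pools highest in granulosa markers, and 0.0594 to 0.204 with 1 of the 6 pools left out.

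Within a pool, Dnmt3b had 0.136 counts per count of Dnmt3a in PND 16 large and 0.0738 at PND 40, with 0.0868 at PND 13 and 0.111 in PND 16 small. Dnmt3l had 0.559 counts per count of Dnmt3a in PND 16 large and 0.371, 0.384 and 0.379 at PND 13, in PND 16 small and at PND 40. Both ratios therefore had their highest mean in PND 16 large. For Dnmt3b to Dnmt3a, PND 16 large (0.115 to 0.152) overlapped PND 16 small (0.0890 to 0.134). For Dnmt3l to Dnmt3a, PND 16 large (0.547 to 0.575) lay above every other pool. Neither ratio differed by competence, with log2 differences of 0.03 (exact permutation p = 0.905, n = 6 and 6) and 0.29 (exact permutation p = 0.113, n = 6 and 6). The design has too few pools to test a ratio between 2 cohorts by permutation.

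**Figure D4:**
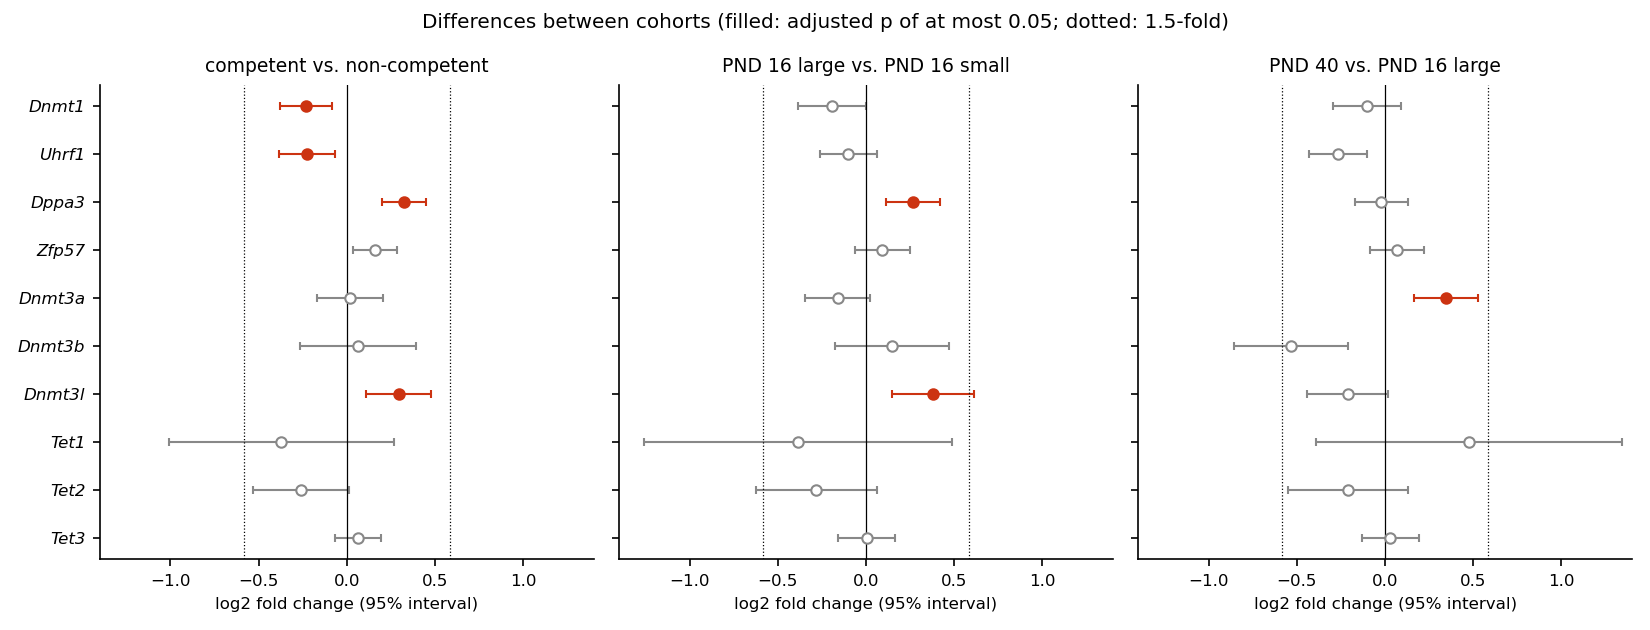
Log2 fold change with its 95% interval for each gene in 3 comparisons; filled points have an adjusted p of at most 0.05 and dotted lines mark 1.5-fold. Dppa3 and Dnmt3l are higher and Dnmt1 and Uhrf1 lower in competent oocytes, Dppa3 and Dnmt3l are higher in PND 16 large than in small, and Dnmt3a is the gene that passes between PND 40 and PND 16 large; no filled point reaches 1.5-fold.

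Tet3, the TET enzyme of the oocyte, held its level most closely. It was between 3922 and 4740.1 CPM over the 12 pools, with cohort means from 4051 ± 146 at PND 13 to 4416 ± 215 at PND 40 (SD, n = 3). Its log2 fold change was 0.06 between competent and non-competent oocytes, with a 95% interval of -0.07 to 0.19, and 0.00 between PND 16 large and small, with an interval of -0.16 to 0.16. Tet2 was between 13.1 and 23.1 CPM. It fell at PND 40 vs. PND 16 small, by -0.49 ± 0.159 (adjusted p = 0.0324), from 19.7 ± 3.28 to 14.0 ± 0.726 CPM (SD, n = 3). That difference did not pass without PND 16 small replicate 3 or any PND 40 pool (adjusted p up to 0.118), nor in a fit of only these 6 pools (adjusted p = 0.0515). It was -0.60 (adjusted p = 0.0165) without PND 16 small replicate 2 and -0.59 (adjusted p = 0.0237) without the 3 pools highest in granulosa markers, both past 1.5-fold.

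Tet1 had the lowest level of the 10 genes, with as few as 53 counts in a pool. It was at 8.84, 3.05 and 8.47 CPM at PND 13, 3.98, 7.68 and 3.14 in PND 16 small, 3.89, 4.10 and 3.38 in PND 16 large and 3.69, 5.65 and 6.47 at PND 40. The 3 pools with the most Tet1 were the 3 pools with the highest granulosa marker sums, and the other PND 13 and PND 16 small pools had 3.05 to 3.98 CPM. Tet1 vs. PND 13 gave the only change over 1.5-fold among the 60 values for 10 genes in 6 pairs, -0.84 ± 0.404 in PND 16 large, with an adjusted p of 0.147. Without PND 13 replicate 2, the PND 13 pool low in granulosa markers (219 CPM), it was -1.21 with an adjusted p of 0.0244. The ratio of Tet1 to Tet3 differed by -0.33 on the log2 scale in competent oocytes (exact permutation p = 0.340, n = 6 and 6), and by 0.36 without the 3 pools.

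**Figure D5:**
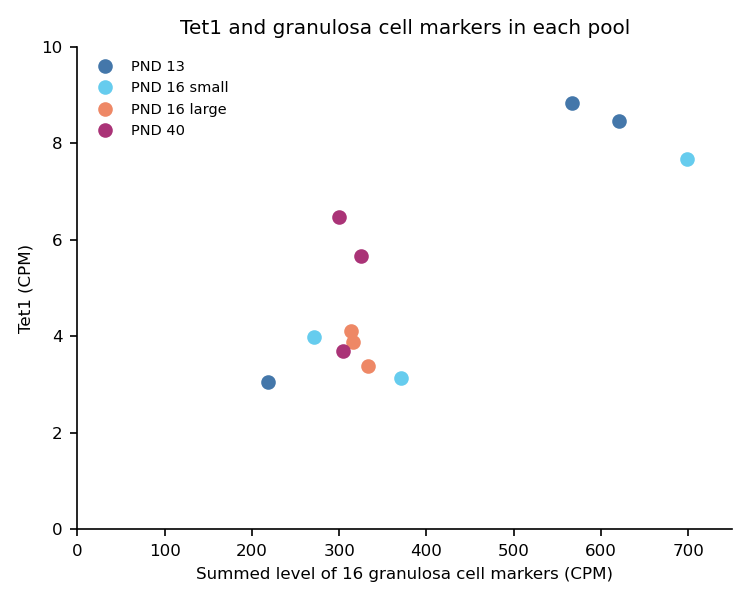
Tet1 (CPM) against the summed CPM of 16 granulosa cell markers, 1 point per pool, coloured by cohort. The 3 pools with a marker sum of 567 to 698 CPM have 7.68 to 8.84 CPM of Tet1, and the other 9 pools, at 219 to 370.4 CPM of markers, have 3.05 to 6.47 CPM.

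The 10 genes work with a wider set, for which 41 further genes were named by role. Among them were other members of the methyltransferase family, partners at replicated DNA, histone modifiers that steer methylation, imprint binding proteins and methyl-CpG readers. The rest were genes of base excision, of TET modification and of the methyl donor. Of the 41 genes, 38 were tested. Tdg, a glycosylase of base excision, was listed at 0 counts in every pool. A processed pseudogene of Tdg is annotated on another chromosome, and reads that map to both may not have been counted, so the 0 is not read as a lack of the transcript. Gadd45g had at most 8 counts, and Dnmt3c was not among the genes counted. In competent vs. non-competent oocytes 4 of 38 were called, all lower, beside 15.0% of all genes, and 21 passed the adjusted p, of which 9 were higher and 12 lower, beside 30.7%. The median log2 fold change of the list was 0.03, and that of all genes was -0.0046. The largest share was among the histone modifiers, where 7 of 8 passed, 4 higher and 3 lower.

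These 4 were named because they met the criteria of the study, which include 1.5-fold, so their passing it is not a further result. Ehmt2, which encodes the histone H3 lysine 9 methyltransferase G9a, was at 34.3, 37.8 and 41.4 CPM at PND 13, 30.7, 26.0 and 24.0 in PND 16 small, 9.90, 15.2 and 13.4 in PND 16 large and 12.1, 10.8 and 10.8 at PND 40. It fell by 1.43 ± 0.148 on the log2 scale in competent oocytes (adjusted p = 2.7e-05), without overlap. Kdm1b, a histone H3 lysine 4 demethylase that oocytes need for maternal imprints, was at 1133 ± 5.76 CPM at PND 13, 1058 ± 171 in PND 16 small, 796 ± 41.8 in PND 16 large and 476 ± 9.12 at PND 40 (SD, n = 3). It fell by 0.79 ± 0.157 with competence (adjusted p = 0.00222) and by 0.74 ± 0.0949 from PND 16 large to PND 40 (adjusted p = 0.00108), the only 1 of the 38 called between these cohorts. The latter was called under every alternative, and without the 3 pools highest in granulosa markers it fell by 0.74 (adjusted p = 0.000269).

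Cul4a, a ligase scaffold, fell from 74.3 ± 7.80 to 42.4 ± 2.62 CPM (SD, n = 6) with competence, by 0.81 ± 0.0810 (adjusted p = 2.4e-05). Uhrf2, the relative of Uhrf1, fell from 16.7 ± 3.63 to 10.6 ± 1.91 CPM, by 0.66 ± 0.165 (adjusted p = 0.00783). Between PND 16 small (19.9, 11.8 and 12.9 CPM) and PND 16 large (12.9, 9.35 and 12.5 CPM) Uhrf2 overlapped and did not pass the adjusted p. Within PND 16, Ehmt2 fell by 1.07 ± 0.158 (adjusted p = 0.00224) and Cul4a by 0.73 ± 0.108 (adjusted p = 0.00222) from small to large, 2 of 38 beside 6.19% of all genes. These 4 and these 2 genes were called under every alternative run, with each pool left out and without the 3 pools highest in granulosa markers. Outside these comparisons and chosen after their values were seen, Nsd1, a histone H3 lysine 36 methyltransferase, was the called gene of the list that rose, by 0.76 ± 0.0858 in PND 16 large (adjusted p = 0.000237) and 0.81 ± 0.0858 at PND 40 (adjusted p = 4.2e-05) vs. PND 13. Without the 3 pools highest in granulosa markers, which leaves 1 PND 13 pool, taken to vary like the others, these were 0.75 and 0.80.

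For the 3 genes with the smallest p in the overall test, the genes most like them across the 12 pools were found by Pearson's correlation of log2 CPM over the other 13933 genes tested. The pools share cohorts and scaling, so the values are a description. Nearest to Dppa3 were Slain1 (r = 0.956), Pard3 (0.952) and Ganc (0.951), with 51 genes at 0.9 or more. Nearest to Uhrf1 were Tnpo2 (0.962), Trim71 (0.960) and Mbtps1 (0.952), with 42 such genes. Nearest to Dnmt3l were Srebf1 (0.964), Mrgbp (0.932) and Eif3e (0.926), with 11.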

How the data were processed

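RNA-Seq was analysed in 12 pools of oocytes, with cohort and replicate number taken from the sample labels. The authors depleted ribosomal RNA, made directional libraries and deposited raw counts per gene, and they also deposited log2 values, in which each count was divided by its pool's size factor and 1 was added before the log was taken. The processing notes name FastQC, STAR, HTSeq, DESeq2 and HOMER and the build mm10, and the versions and the annotation used for counting are not given in the sources used here. Reads had no molecular identifiers.

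The filterByExpr function of edgeR was used by cohort with a minimum count of 10. Pools were scaled by TMM (factors 0.955 to 1.07) and genes were tested with edgeR 4.0.16 (robust quasi-likelihood, Benjamini-Hochberg adjustment over 13943 genes, R 4.3.3). Pairwise comparisons were contrasts in 1 model of the 4 cohorts, and competence was a model of 6 pools vs. 6 pools. That model takes pools as replicates of competence, although the label belongs to cohorts. P-values were adjusted over genes within each comparison and not over the comparisons. Standard errors were derived from each log2 fold change and its F statistic. Count ratios used a pseudocount of 0.5 and exact two-sided permutation tests. The fits and permutation tests were tested on simulated data. Alternatives used DESeq2 1.42.0 and limma 3.58.1, other scalings, filters and designs, and left out pools. The alternative without the 3 pools highest in granulosa markers was chosen after seeing the data.

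All 10 genes are named, with the listed pathway genes called by competence or within PND 16 and the 3 nearest genes to 3 members. The members and lists were chosen with earlier results of these data known, and the markers and the pathway list were compiled by hand. The paper describes the pools as independent and made from 3 mice per cohort, and the labels do not say which mouse gave which pool, so p-values measure the spread between these pools. Pools of a cohort differed beyond sampling noise (chi-square per gene 9.17 to 50.6). Replicate numbers did not pair the pools, as the deviations of same-numbered pools correlated at -0.442 to 0.0753.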

Additional observations from a re-analysis of the deposited data

Results flagged for a closer look

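In the within-pool ratio of Dppa3 to Uhrf1, PND 16 small replicate 3 (log2 ratio -2.42) stood apart from the other 5 non-competent pools, which ranged from -2.86 to -2.74. Of 28 groups of 6 pools, this was the 1 in which the highest or lowest pool was this far from the rest by Dixon's criterion, and chance gives about 1 such group in 20. Its Uhrf1 level of 1039 CPM was the lowest among the non-competent pools and its Dppa3 level of 194 CPM the highest.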

How the results depend on the processing

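The alternatives were DESeq2, limma on the authors' log2 values, RLE, upper quartile and total count scaling, other filters, the granulosa marker level as a covariate, the replicate block, fits of the compared pools alone, cohort means and, chosen after seeing the data, leaving out the 3 pools highest in granulosa markers. Each of the 18 differences past the adjusted p kept its sign in all 330 refits, and it stayed past in 182 of 198 with an alternative and in 85 of 132 with 1 pool left out; the causes were not tested.

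By the study's criteria the count of the 10 genes stayed at 0, except that it was 1 for PND 40 vs. PND 16 small without the 3 pools. For PND 16 large vs. PND 13 that fit left 1 PND 13 pool, and its count is not given. With 1 pool left out the count was 0 to 1 for PND 16 large vs. PND 13 and for PND 40 vs. PND 16 small. With no fold criterion it was 3 for PND 16 large vs. PND 13, 4 for PND 40 vs. PND 13, 2 for PND 16 large vs. PND 16 small, 4 for PND 40 vs. PND 16 small, 1 for PND 40 vs. PND 16 large and 4 by competence.

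By the adjusted p alone, leaving out 1 pool gave 2 to 6 genes among the 4 cohorts, 1 to 3 for PND 16 large vs. PND 13, 2 to 4 for PND 40 vs. PND 13, 0 to 1 for PND 16 large vs. PND 16 small, 1 to 4 for PND 40 vs. PND 16 small, 0 to 0 for PND 40 vs. PND 16 large and 2 to 6 by competence. Without the 3 pools the counts were 1 for PND 16 large vs. PND 16 small, 2 for PND 40 vs. PND 16 large and 2 by competence. Comparisons with PND 13 then held 1 pool of that cohort, and their counts are not given. Fits of the 6 pools compared gave 0 for PND 16 large vs. PND 16 small, 2 for PND 40 vs. PND 16 small and 4 for PND 40 vs. PND 16 large. For this last comparison, 3 passed with DESeq2, RLE scaling, limma and the covariate, and 2 with upper quartile scaling, no filter and a minimum count of 50.

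With the replicate block, which the numbers do not support as a pairing, the counts were 5 among the 4 cohorts, 3 for PND 40 vs. PND 13 and 3 by competence. In that block the ratio of Dppa3 to Uhrf1 had an adjusted p of 0.0370, and same-numbered pools were the best correlated in 11 of 36 cases.

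The ratio of Tet1 to Tet3 changed sign without the 3 pools, to 0.36 (adjusted p = 0.286). With 1 pool left out, the ratio of Dnmt3b to Dnmt3a ranged from -0.088 to 0.18. Total counts moved the median of all genes to -0.13 for PND 16 large and -0.12 for PND 16 small, each vs. PND 13. Depth limits Tet1 most, with 53 counts in the lowest pool.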
